A study of Mus musculus with 4 samples.

Results

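The embryonic and adult globin genes are 7 of the 27998 genes counted in 4 single-cell libraries of mouse heart valve tissue. They were taken by symbol, each matching 1 identifier in every library: the alpha-type genes Hba-x, Hba-a1 and Hba-a2, and the beta-type genes Hbb-y, Hbb-bh1, Hbb-bs and Hbb-bt. Their counts were followed in E9.5 cells whose summed globin count reached 1000 UMIs per 10000, called globin-rich here, and in all other cells of each library. A UMI is a molecular tag that counts each captured transcript once, so the values are not scaled for transcript length. The globin sum chose the globin-rich cells. That sum is therefore given as a description, and the results concern how the 7 genes divide it and what lies outside it.

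The E9.5 library was made from microdissected atrioventricular canal, the region of the embryonic heart tube where the valve cushions form. The E16.5 library and both P0 (newborn) libraries were made from microdissected mitral valve. All animals came from Tie2cre x Rosa26 tdTomato mice with the strain given as C57BL/6, the tissue of at least 60 embryos was pooled at each stage, and cells were sorted on the tomato reporter. Tie2-driven Cre labels endothelial cells and their descendants, and it is also active in blood cells. Stage, tissue and library coincide except at P0, where 2 libraries allow a spread, and nothing in the labels says whether these came from separate animals or pools.

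After a filter on gene number, mitochondrial share and predicted doublets, 1194 of 1206 E9.5 cells, 311 of 452 E16.5 cells, and 282 of 291 and 173 of 211 P0 cells were kept. Depth differed, with a median of 24621 UMIs per kept E9.5 cell, 2357 at E16.5, and 5160 and 4432 in the P0 libraries. The barcode lists of the 2 P0 libraries shared 4 barcodes. Each list has the length of the other library's matrix, so which list belongs to which replicate is uncertain, and barcodes were used for nothing else. All intervals below are exact 95% intervals that cover counting error only.

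Haemoglobin is a tetramer of 2 alpha-type and 2 beta-type chains, each holding a haem group. In the mouse, the first red cells arise in the yolk sac, enter the circulation with their nuclei and carry embryonic chains, Hba-x (zeta) on the alpha side and Hbb-y (epsilon-y) and Hbb-bh1 (beta-h1) on the beta side. The alpha side also uses the adult genes Hba-a1 and Hba-a2 early, whereas the adult beta genes Hbb-bs and Hbb-bt (beta-s and beta-t) belong mainly to the later red cells made in fetal liver and bone marrow. Within the primitive lineage the main beta-type chain changes with maturation, from Hbb-bh1 towards Hbb-y.

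The 3 alpha-type genes lie in 1 cluster on the plus strand of chromosome 11 in GRCm38, the assembly also called mm10: Hba-x at chr11:32276400-32278116, Hba-a1 at chr11:32283511-32284465 and Hba-a2 at chr11:32296489-32297298. The 4 beta-type genes lie in 1 cluster on the minus strand of chromosome 7: Hbb-y at chr7:103851749-103853216, Hbb-bh1 at chr7:103841637-103843164, Hbb-bs at chr7:103826534-103828096 and Hbb-bt at chr7:103812524-103813996. Along the direction of transcription both clusters therefore run from embryonic to adult genes. Each gene is annotated with 3 exons (GENCODE M21).

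Because reads were 57 nt and came from the 3′ end, the last 400 nt of each annotated transcript were searched for 57-nt windows found in another member. Of these windows of Hba-a1, 83.4% were also in Hba-a2, and 78.8% of those of Hba-a2 were in Hba-a1. Hbb-bs shared 53.8% of its windows with Hbb-bt, and Hbb-bt 53.5% with Hbb-bs, whereas Hba-x, Hbb-y and Hbb-bh1 shared 0%. Counts of the adult genes are thus uncertain, both within a pair and, where reads that match both genes were left out, in the sum of the pair. How such reads were counted was not tested. This limit applies to every adult share given here, and to each sum, ratio or ranking that includes an adult gene.

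The 130 bases upstream of the RefSeq gene start (GRCm38.p6) are shown for genes on both sides of the embryonic against adult comparison, so that their motifs can be set side by side. Capitals mark, on either strand, CACCC, matches of the CCAAT box, and matches of the GATA motif in the form GATAA. On the strand shown they also mark the TATA box as TATAA, or its variant found in Hbb-y, which is CATAAA. In Hbb-bt, 2 CCAAT matches on opposite strands abut.
Hba-x, chr11:32276470-32276599, plus strand: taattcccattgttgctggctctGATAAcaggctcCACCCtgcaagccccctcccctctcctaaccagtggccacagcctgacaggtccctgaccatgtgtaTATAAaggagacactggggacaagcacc
Hba-a1, chr11:32283542-32283671, plus strand: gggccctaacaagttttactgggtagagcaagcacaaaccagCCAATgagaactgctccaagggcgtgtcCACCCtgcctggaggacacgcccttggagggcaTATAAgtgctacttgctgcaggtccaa
Hbb-y, chr7:103853208-103853337, minus strand: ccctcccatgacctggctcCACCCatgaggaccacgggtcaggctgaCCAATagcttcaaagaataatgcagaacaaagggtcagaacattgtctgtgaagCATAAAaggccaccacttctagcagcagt
Hbb-bs, chr7:103827929-103828058, minus strand: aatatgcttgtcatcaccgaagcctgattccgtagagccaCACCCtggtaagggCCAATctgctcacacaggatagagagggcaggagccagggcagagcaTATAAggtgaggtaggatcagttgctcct
Hbb-bt, chr7:103813924-103814053, minus strand: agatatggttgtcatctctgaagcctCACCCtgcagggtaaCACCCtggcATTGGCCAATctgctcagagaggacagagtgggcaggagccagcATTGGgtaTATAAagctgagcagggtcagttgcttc
The Hba-a2 window shared a run of 127 of its 130 bases with that of Hba-a1. The longest shared run was 14 between Hbb-bs and Hbb-bt and at most 10 in every other pair of the 6 windows. The Hbb-bh1 window was not analysed here.

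CACCC, the core of the element bound by Klf1-type factors, was found in 6 of 6 member windows and in 33.7% of 32851 promoter windows of the same length. CCAAT was found in 5 of 6, all but Hba-x, against 22.4% of all windows. TATAA was found in 5 of 6, against 9.07%. The remaining one, Hbb-y, held CATAAA, which was put among the motifs as the variant found there. Its match was thus fixed in advance, and the 3.16% of all windows that held it is a description. The nearly identical windows of Hba-a1 and Hba-a2 are counted separately among the 6. GATAA, a form of the GATA-factor motif, was found only in Hba-x among the 6, and in 11.4% of all windows. These are letter matches and not measured binding.

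In the E9.5 library 246 kept cells were globin-rich, 20.6% of its cells. Globins made up 37.8% of all their UMIs, 3784 per 10000 over the group, and the level of single cells had a median of 3924 and a range of 1161 to 5280. The other 948 E9.5 cells had 66.7 per 10000 (interval 66.4 to 67.1), with a range of 30.6 to 510 over cells. The E16.5 cells had 0.509 per 10000 (0.368 to 0.685), from 43 UMIs in 33 of 311 cells. The P0 libraries had 0.227 (0.163 to 0.308), from 41 UMIs in 7 of 282 cells, and 0.0206 (0.00249 to 0.0743), from 2 UMIs in 1 of 173 cells. None of the deposited mitral valve cells reached the threshold, and the highest level among them was 49.8 per 10000 at E16.5.

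Few E9.5 cells lay between the groups. Of the other E9.5 cells 937 of 948 were under 100 per 10000, 1 kept cell lay from 200 to 500 and 1 from 500 to 1000. Just inside the threshold were cells at 1161, 1188 and 1626 per 10000, and just outside were cells at 510, 379 and 192. The globin-rich label fitted the rest of the transcriptome: 243 of the 246 cells fell into 2 clusters made without any globin gene, and both clusters had all 21 measured genes of an erythroid marker list without globins raised. The 3 exceptions sat singly in the endothelial-like cluster 4, the epicardial-like cluster 10 and the unnamed cluster 12, led by Pf4 and Prtn3, and were the 3 lowest globin-rich cells. The epicardial-cluster cell had 62441 UMIs. None was predicted as a doublet, and whether any holds RNA of 2 cells was not tested.

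**Figure D1:**
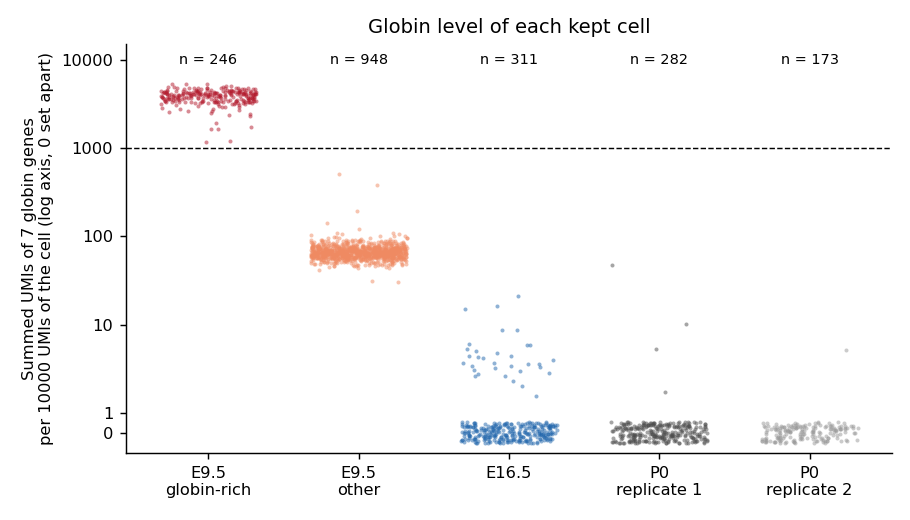
Summed UMIs of the 7 globin genes per 10000 UMIs of each kept cell, on a log axis with cells at 0 set apart at the bottom; each point is 1 cell, and the dashed line is the threshold of 1000. The 246 globin-rich cells lie between 1161 and 5280, the 948 other E9.5 cells mostly between 50 and 100, and most cells of the other 3 libraries at 0.

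Embryonic genes supplied most of the globin UMIs of the globin-rich cells. Hbb-y made up 39.2% of them, Hba-x 22.3% and Hbb-bh1 22.2%, followed by the adult alpha genes Hba-a1 with 13.6% and Hba-a2 with 2.16%. The adult beta genes added 0.346% (Hbb-bs) and 0.150% (Hbb-bt). The alpha and beta sides thus differed in their share of adult transcripts: adult genes held 41.4% of alpha-type UMIs (interval 41.4 to 41.5) and 0.802% of beta-type UMIs (0.789 to 0.815). Beta-type UMIs exceeded alpha-type UMIs by 1.63 times over the group.

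Hba-x, the embryonic zeta chain, had 683037 UMIs in the globin-rich cells, or 843 per 10000, and single cells ranged from 222 to 1294 with a median of 849. Hba-a1 had 516 per 10000 over the group and a range of 58.4 to 886, and Hba-a2 81.6 with a range of 5.69 to 291. Hba-x exceeded the adult alpha genes together in 229 of 246 cells, and Hba-a1 exceeded Hba-a2 in all 246.

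Hbb-y, the epsilon-y chain, was the most abundant globin at 1483 per 10000 over the group and 396 to 2269 over cells. Hbb-bh1 had 841 per 10000, with a range of 284 to 1216. Hbb-y had the highest count of the 7 genes in 240 of 246 cells, Hbb-bh1 in 5 and Hba-x in 1. The most abundant chain was therefore the same in nearly all these cells.

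Hbb-bs had 13.1 per 10000 over the group, with a median of 6.82 and a highest cell at 138, and Hbb-bt had 5.69, with a median of 1.52 and a highest cell at 128. No UMI of Hbb-bs was found in 6 cells and none of Hbb-bt in 33. These low levels were unevenly spread: the 25 cells with the most adult beta UMIs held 40.8% of the group's 15221, while the median cell had 36. The highest cell had 545, of which 284 were Hbb-bs and 261 Hbb-bt, and this made up 11.5% of its beta-type UMIs.

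Single cells showed the same difference between the sides. The median cell had 41.6% adult UMIs on the alpha side and 0.498% on the beta side. Over the 246 cells the alpha share ranged from 22.4% to 62.5% and the beta share from 0% to 11.5%. The ranges did not overlap, and 9 in 10 cells were at or under 2.07% on the beta side.

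Other globin-family rows were also read in these cells. Hbb-bh2, a beta-like gene of the same cluster, had 188 UMIs in globin-rich cells and 3 in other E9.5 cells. Hbq1b, a theta-type gene of the alpha cluster, had 910 in globin-rich cells and 22 in the others. Hbq1a had 7 in globin-rich cells and 0 in the others. None of the 3 had a UMI in the mitral valve libraries.

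**Figure D2:**
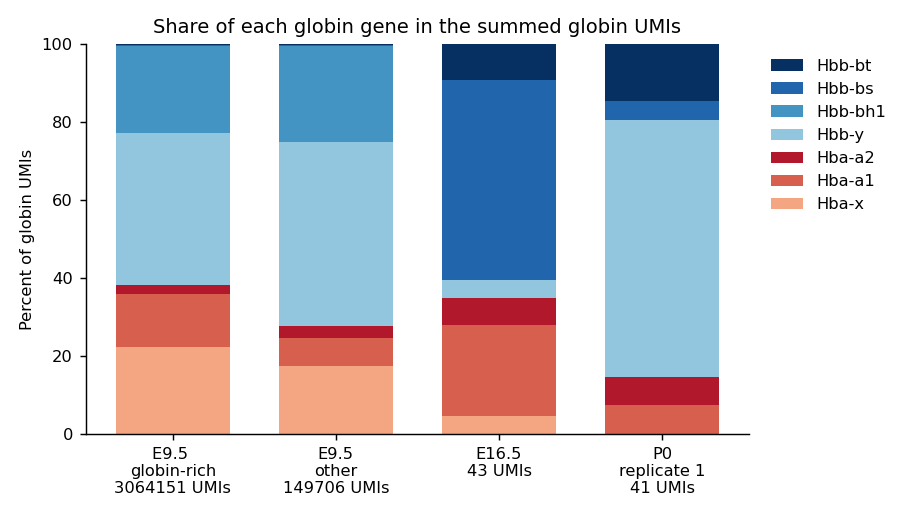
Share of each of the 7 genes in the summed globin UMIs, in percent, for globin-rich and other E9.5 cells, E16.5 cells and P0 replicate 1 (P0 replicate 2 had 2 UMIs and is not drawn). Embryonic genes hold most of both E9.5 bars, Hbb-bs holds 51.2% at E16.5, and 32 of the 41 UMIs of the P0 bar came from 1 cell.

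Globin-rich cells differed from one another in their chain shares by more than counting allows. The Hba-x share of alpha-type UMIs had a median of 58.4% and a range of 37.5% to 77.6%, with an SD over cells of 5.13 percentage points against 0.846 from counting alone. The Hbb-bh1 share of beta-type UMIs had a median of 35.6% and a range of 28.3% to 55.6%, with an SD of 4.29 against 0.637. These spreads are over cells of 1 library pooled from many embryos, so they are not replicate errors.

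The Hbb-bh1 share was larger in cells with less globin. With cells ranked by globin level and split into 4 groups of 61 or 62, Hbb-bh1 held 38.9%, 35.8%, 35.3% and 34.5% of beta-type UMIs from the lowest to the highest group. Over the 246 cells Spearman's rho was -0.38 and Pearson's r -0.53, as a description, since both measures come from the same counts. The 6 cells of the erythroid clusters 6 and 7 under 2500 per 10000, at 1654 to 2446, had Hbb-bh1 shares of 52.7%, 54.9%, 53.5%, 42.2%, 45.2% and 39.3% in order of rising level, while 9 in 10 of all globin-rich cells were at or under 41.8%. Within clusters 6 and 7 alone rho was -0.36.

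The alpha-side and beta-side shares were weakly related. Between the Hba-x share of alpha and the Hbb-bh1 share of beta, Pearson's r was 0.31 and Spearman's rho 0.18 at full depth, and 0.17 in the 245 cells that could be thinned to 2000 globin UMIs each. The Hba-x share had almost no relation to the globin level (rho -0.02). Across the 4 groups of globin level, adult genes held 41.5%, 40.8%, 42.2% and 41.3% of alpha-type UMIs, with no order. The adult beta share had rho 0.19 with the Hbb-bh1 share, or 0.10 in the thinned cells, and 0.02 with the Hba-x share.

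The 2 erythroid clusters differed in the same shares. Cluster 6 (85 cells) had a median Hbb-bh1 share of 37.3% and a median Hba-x share of 59.5%, and cluster 7 (158 cells) had 34.8% and 57.9%. Median globin levels were 3716 per 10000 in cluster 6 and 3984 in cluster 7, and their ranges of the Hbb-bh1 share overlapped (32.2% to 53.5% and 28.3% to 54.9%). Both clusters come from the same library and were made from the other genes of the same cells, so the difference is a description.

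**Figure D3:**
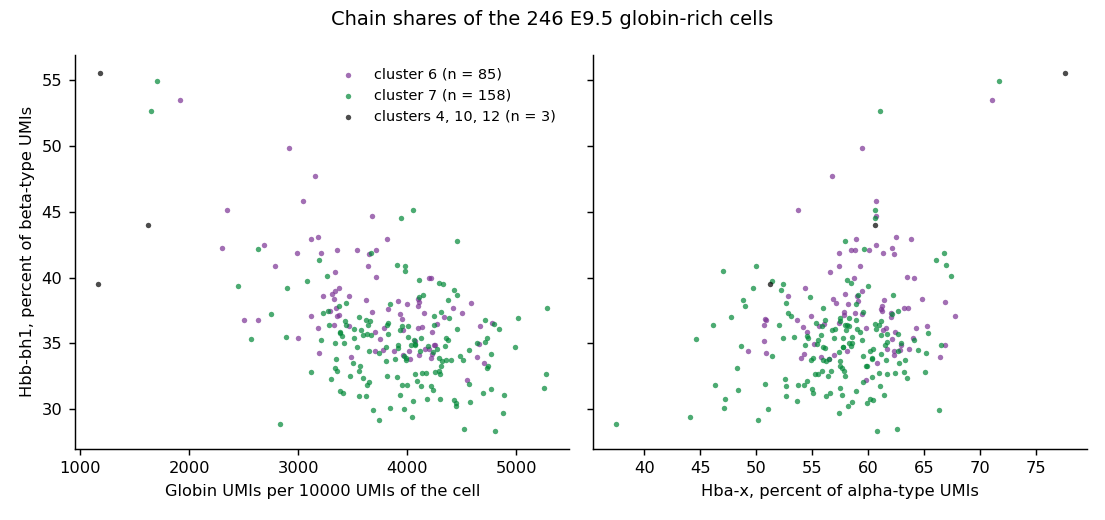
Hbb-bh1 as a percent of beta-type UMIs against the globin level (left) and against Hba-x as a percent of alpha-type UMIs (right); each point is 1 of the 246 globin-rich cells, coloured by cluster. Cells under 2000 UMIs per 10000 reach 39.5% to 55.6% Hbb-bh1, and the spread on the right shows the weak relation between the alpha and beta shares.

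Among 5874 genes with a UMI in at least 20% of globin-rich cells, those most like the Hbb-bh1 share were named by Spearman's rho. Highest were Npm1, a nucleolar chaperone of ribosome assembly (rho 0.45), the glycolytic enzymes Ldha (0.32) and Gapdh (0.31), the linker histone H1f0 (0.30) and the ribosome biogenesis gene Rrp15 (0.30). Lowest were the ribosomal protein gene Rpl21 (-0.51), the red cell peroxidase Prdx2 (-0.41), Nudt4 (-0.39), the metallothionein Mt2 (-0.36) and the ferritin heavy chain Fth1 (-0.35). Npm1 stood at 42.6 per 10000 non-globin UMIs in the 62 cells with the largest Hbb-bh1 share and at 29.98 in the 62 with the smallest. Mt2 stood at 2.94 in the cells with the largest share and at 12.04 in those with the smallest, and Rpl21 at 7.69 and 23.5 in the same order. The Hbb-bh1 share itself had rho 0.16 with non-globin UMIs per cell, and Npm1, the gene named here with the strongest relation to depth, had 0.36.

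Genes like the adult alpha share had weaker relations. The highest were Rps18 (0.26), Cd59a, a complement inhibitor on red cells (0.26), Sepw1 (0.26), mt-Co1 (0.26) and Fth1 (0.25), and the lowest were Nmd3 (-0.32), Ran (-0.31), Nop56 (-0.29), Pa2g4 (-0.28) and Oser1 (-0.27). Nmd3, Nop56 and Pa2g4 act in ribosome production. The adult alpha share had rho -0.15 with non-globin UMIs per cell. Nmd3, Pa2g4 and mt-Co1 had stronger relations to these UMIs than to the share (rho 0.36, 0.36 and -0.38). The other genes named for this share had weaker ones.

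The Hba-a2 share of adult alpha UMIs fell into 3 separate ranges over the 246 globin-rich cells. It lay between 2.56% and 9.14% in 124 cells (median 6.43%), between 15.5% and 26.1% in 108 cells (median 20.2%) and between 30.7% and 38.0% in 14 cells (median 34.9%). There were 0 cells from 10% to 15% and 0 from 27% to 30%. The boundaries of 14% and 28% were set after the values were seen, and no test is given. Within the ranges the SD over cells was 0.989, 2.14 and 2.35 percentage points, against 0.638, 1.08 and 1.45 from counting.

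The sum of both adult alpha genes was alike in the 3 ranges. Its median was 604, 600 and 649 per 10000 from the low to the high range, with Hba-a1 at 567, 479 and 411 and Hba-a2 at 38.3, 127 and 222. Hba-x had a median of 890, 794 and 746 per 10000 in the same order. Both erythroid clusters held cells of the low and middle range, with 52 and 32 cells of cluster 6 and 70 and 75 of cluster 7. Since these genes share most of their 3′ sequence, a value of Hba-a2 here is what the authors' counting assigned to it, and how the ranges arise was not tested.

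Rpl21, named above, divided with these ranges. It was under 5 per 10000 non-globin UMIs in 58 globin-rich cells, and 57 of these were in the low Hba-a2 range, 1 in the middle range and 0 in the high range. The level of 5 was chosen after seeing the values. Rpl21 was also under 5 in 198 of the 948 other E9.5 cells (20.9%), against 23.6% of globin-rich cells. The median Hbb-bh1 share was 38.1% in the 58 cells and 34.99% in the remaining globin-rich cells.

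In other E9.5 cells the Hba-a2 share had 1 broad peak. In the 289 of them with at least 20 adult alpha UMIs and under 150 globin UMIs per 10000, its median was 30.8%, and the SD of 9.20 percentage points was close to the 9.36 expected from counting. That counting spread is wider than the empty gaps seen in the globin-rich cells, so ranges of that kind could not be detected here.

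**Figure D4:**
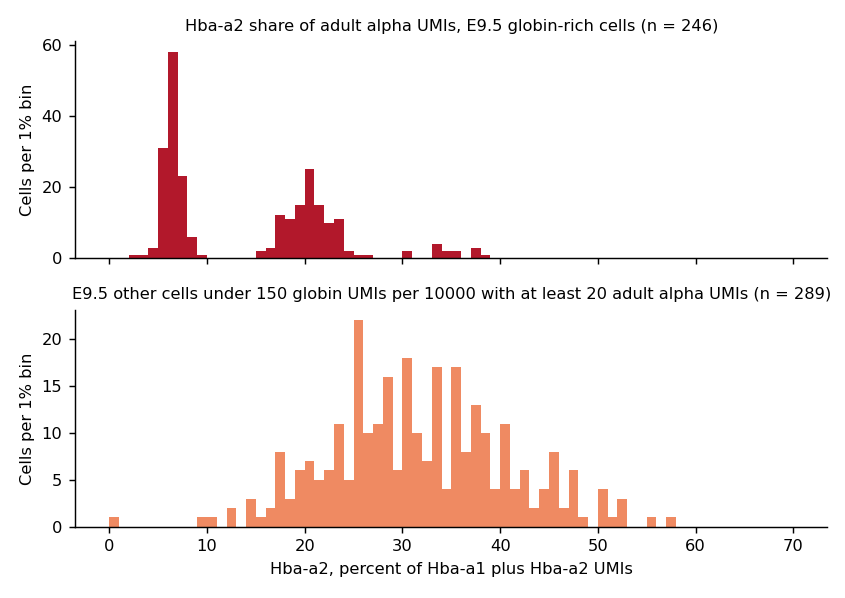
Number of cells per 1% bin of the Hba-a2 share of Hba-a1 plus Hba-a2 UMIs, in the 246 globin-rich cells (top) and in 289 other E9.5 cells with enough counts (bottom). The globin-rich cells form 3 groups with empty bins between 10% and 15% and between 27% and 30%, and the other cells form 1 broad peak around 30.8%.

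The adult beta pair was uneven too. In the 164 globin-rich cells with at least 20 adult beta UMIs, the Hbb-bt share of Hbb-bs plus Hbb-bt ran from 0% to 99.0% with a median of 13.8%, and its SD of 30.2 percentage points compares with 6.43 from counting. It was under 5% in 50 cells and over 80% in 18. Over the summed UMIs the share was 30.3%, and the shared sequence of this pair limits it in the same way.

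The genes of red cell function were higher in the globin-rich than in the other E9.5 cells. Levels are given per 10000 non-globin UMIs, and with 1 library there is no test. Of all 14021 genes with at least 10 UMIs in these groups together, 7.14% were at least 2-fold higher in globin-rich cells and 44.7% at least 2-fold lower, and the median log2 ratio was -0.54. Of the erythroid list 21 of 21 measured genes were at least 2-fold higher in globin-rich cells, of the haem and iron list 15 of 15, of the membrane list 13 of 14 and of the haemoglobin partner list 6 of 8. Their median log2 ratios were 5.51, 3.44, 5.30 and 3.62. These lists overlap, and since erythroid cells are what the globin sum selects, they describe the cells and are not evidence of their own.

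Among haem genes, Alas2, the first enzyme of haem synthesis in red cells, had 16.2 in globin-rich cells and 0.127 in other cells. Fech, which inserts iron into the ring, had 9.47 in globin-rich cells and 0.444 in others. The mitochondrial iron importer Slc25a37 had 6.98 in globin-rich cells and 0.143 in other cells. The smallest ratio in this list was that of the ferritin light chain Ftl1, with 91.7 in globin-rich and 32.9 in other cells.

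On the membrane, the anion exchanger Slc4a1 had 4.66 in globin-rich and 0.0399 in other cells, and the ammonium channel Rhag 1.60 and 0.00853. Tmod1, which caps actin filaments in red cells and in heart muscle, was the exception, with 0.930 in globin-rich and 1.73 in other cells. Of the partner list, Prdx2 had 51.6 in globin-rich cells and 8.63 in others, and the carbonic anhydrase Car2 38.6 and 0.477. Cat (catalase) with a ratio of 1.68 and Sod1 with 1.09 did not reach 2-fold. The alpha-chain chaperone Ahsp was not analysed here.

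The globin regulators were mixed, with 9 of 18 at least 2-fold higher in globin-rich cells and 5 at least 2-fold lower. Klf1, the activator that the adult beta promoter needs, had 5.97 in globin-rich cells and 0.114 in others, and Gata1, the master factor of the lineage, had 2.39 and 0.0552. Tal1 had 1.56 in globin-rich and 0.117 in other cells, and Nfe2, which binds the beta locus control region, 1.09 and 0.0458. The repressors in this list differed among themselves. Bcl11a had 0.00397 per 10000 in globin-rich cells (2 UMIs) and 0.0583 in other cells (130 UMIs). Sox6 had 0.0139 (7 UMIs) and 0.0790 (176 UMIs). Myb, which acts against the fetal globin genes in human cells, had 0.00199 (1 UMI) and 0.0126 (28 UMIs). Zbtb7a had 0.375 per 10000 in globin-rich and 0.167 in other cells, Klf3 0.584 and 0.306, Mbd2 0.379 and 0.268, and the demethylase Kdm1a 0.276 and 0.571. Klf2, which supports embryonic globin expression in mouse primitive cells, had 0.137 per 10000 in globin-rich and 0.937 in other cells.

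Within the globin-rich cells the regulators hardly followed the beta switch. Spearman's rho with the Hbb-bh1 share was -0.03 for Klf1, 0.00 for Gata1, 0.11 for Nfe2, 0.10 for Lmo2 and -0.11 for Tal1. Larger negative values belonged to products of maturing red cells, Rhd (-0.29), Slc4a1 (-0.26) and Alas2 (-0.22). Rhd, the Rhesus protein, had 1.24 per 10000 in the 62 cells with the largest Hbb-bh1 share and 2.66 in the 62 with the smallest.

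Over all 1194 kept E9.5 cells, the genes outside the members most like the summed globin level were Trim10 (rho 0.65), Hbq1b (0.65), the potassium channel Kcnn4 (0.65), Rhag (0.63), Gata1 (0.63), Slc4a1 (0.63), Hemgn (0.62), Ncf4 (0.62), Rhd (0.62) and Ermap (0.61), out of 10879 genes compared. The cells share 1 library, and these values are a description. Trim10, for example, had a UMI in 94.7% of globin-rich and 2.74% of other cells.

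All 948 other E9.5 cells had globin UMIs. The sum per cluster, over the 11 clusters with at least 20 such cells, lay between 59.5 per 10000 in the unnamed cluster 1, led by Osr1, and 71.7 in the cardiomyocyte-like cluster 0. Endothelial-like clusters 4 and 5 had 66.1 and 67.2, the pharyngeal-like cluster 2 had 65.6, the epicardial-like cluster 10 had 63.6 and the cushion-like cluster 11 had 64.3. The 4 cardiomyocyte-like clusters, of a cell type not known to use these genes, had 64.3 to 71.7. Thinned to 1000 UMIs per cell, 948 of 948 still had a globin UMI.

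The chain shares of the 11 clusters were also nearly the same. Hbb-bh1 held 32.6% to 33.9% of beta-type UMIs, Hba-x 62.1% to 64.2% of alpha-type UMIs, and alpha-type genes 27.2% to 28.7% of globin UMIs. The number of globin UMIs followed the depth of the cell: over 4 groups of 237 cells of rising depth the median cell had 73, 134, 173 and 230 globin UMIs, at 68.9, 67.9, 68.1 and 64.5 per 10000. Spearman's rho between globin UMIs and other UMIs was 0.94 over the 945 cells under 150 per 10000, as a description. The SD over these cells was 10.9 per 10000, against 5.97 from counting.

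The mixture differed from that of the globin-rich cells. Alpha-type genes held 38.1% of globin UMIs in globin-rich cells and 27.7% in other cells, Hbb-y 39.2% and 47.1%, Hba-x 22.3% and 17.5%, and Hba-a1 13.6% and 7.02%, in the same order. Hba-a2 differed the other way, with 2.16% in globin-rich and 3.18% in other cells, so that Hba-a1 exceeded Hba-a2 by 6.32 times in globin-rich and by 2.21 times in other cells. Per 10000 non-globin UMIs, the level in other cells was 0.568% of that in globin-rich cells for Hba-a1, 0.865% for Hba-x, 1.23% for Hbb-bh1, 1.33% for Hbb-y and 1.63% for Hba-a2. The 7 members had a median of 1.05%. The 21 genes of the erythroid list had a median of 1.91% and ran from 0.497% for Ermap to 12.8% for Tmem14c, with 9 of them under 1%. The part of free RNA in these UMIs was not tested.

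A cluster of 13 cells, too small for that range, stood apart. Cluster 12 was led by Pf4, Prtn3, Coro1a, Plek and Fermt3, followed by Fcer1g, Tyrobp, Rac2 and Spi1. Of the marker lists 10 of 10 megakaryocyte and 9 of 12 myeloid genes were raised, so the cluster is left unnamed. Of its cells 8 lay between 68.8 and 110 globin UMIs per 10000 with 29.9% to 34.5% Hbb-bh1 among beta-type UMIs. The remaining 5 lay at 141, 192, 379, 510 and 1188 per 10000, and Hbb-bh1 held 70.2%, 42.6%, 77.0%, 90.8% and 55.6% of their beta-type UMIs in that order. The cell at 510 had 1014 Hbb-bh1 UMIs and 93 of Hbb-y. The 4 of these cells below the threshold were singled out after their values were seen. Over the 12 cells of this cluster that count as other cells, Hbb-bh1 held 57.8% of beta-type UMIs (56.3 to 59.2).

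**Figure D5:**
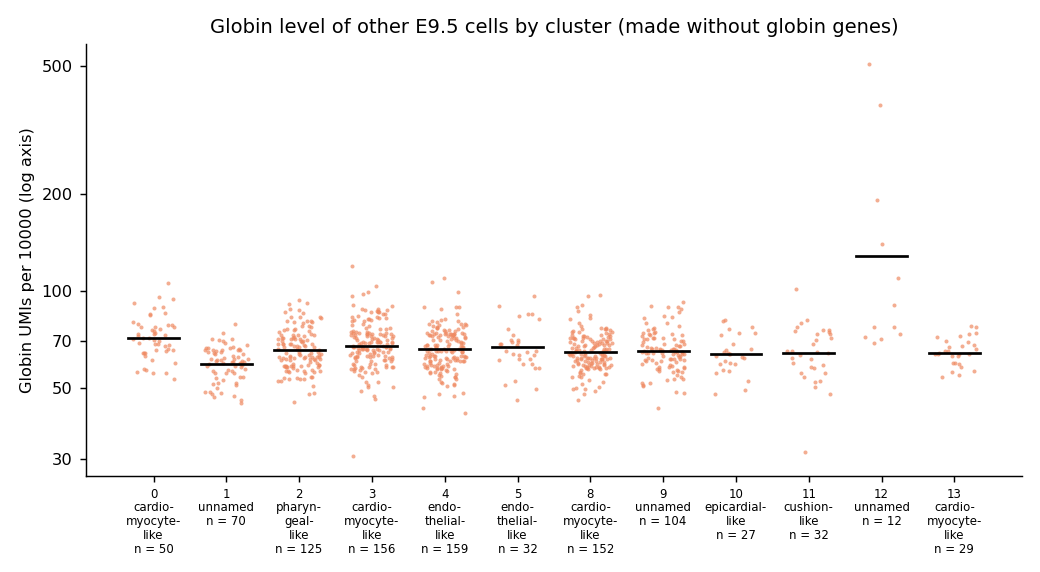
Globin UMIs per 10000, on a log axis, of each other E9.5 cell (points) and of the cluster's sum (lines), by cluster; clusters were made without the globin genes. The lines of the clusters with at least 20 cells lie between 59.5 and 71.7, and 4 of the 12 cells of cluster 12 lie above 140.

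In the mitral valve libraries globin UMIs were rare. At E16.5 adult genes held 39 of 43 UMIs, or 90.7% (77.9 to 97.4): Hbb-bs had 22, Hba-a1 10, Hbb-bt 4 and Hba-a2 3, beside 2 of Hba-x and 2 of Hbb-y. Hbb-bh1 had 0, which allows up to 0.0355 per 10000 at 3 counts. These UMIs were spread thinly, with 1 each in 25 of the 33 cells and at most 3 in a cell.

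P0 replicate 1 had 27 Hbb-y, 6 Hbb-bt, 3 Hba-a1, 3 Hba-a2 and 2 Hbb-bs UMIs, and replicate 2 had 2 Hbb-y. Hba-x and Hbb-bh1 had 0 in both libraries together, which allows up to 0.0108 per 10000. A single cell of replicate 1 held 32 of its 41 globin UMIs, all 27 of Hbb-y and 5 of Hbb-bt, and none of an alpha gene. This cell had 6666 UMIs, with UMIs for 10 of 13 endothelial markers, and 41 of Klf2. Its erythroid list had 4 UMIs from 2 of 21 genes, or 6.00 per 10000 against 3.37 in its library, with 0 of Alas2. Without it, replicate 1 had 9 globin UMIs, or 0.04999 per 10000.

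Thinned to 1000 UMIs per cell, a globin UMI was found in 17 of 309 E16.5 cells (5.50%, interval 3.24 to 8.66), in 2 of 282 P0 replicate 1 cells (0.709%) and in 1 of 173 of replicate 2 (0.578%). Without thinning the shares were 10.6%, 2.48% and 0.578%. All 948 other E9.5 cells had one at that depth.

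UMIs summed over the cells below the threshold were compared between libraries by the quasi-likelihood test of edgeR, and p-values were adjusted over 9413 genes by the Benjamini-Hochberg method. The spread came from the 2 P0 libraries only, with 1 residual degree of freedom, and each single library is assumed to vary like them. A gene was called at an adjusted p under 0.05 when the single library also lay outside both P0 libraries. For E16.5 against P0, 27.9% of all genes were called, 14.5% as higher (1364 genes) and 13.4% as lower (1259 genes) at E16.5. When scaled by library totals and not by TMM, which puts the median log2 change of all genes at -0.68 and not at -0.07, 794 were called higher and 3281 lower. Hbb-bt did not pass the filter on low counts, and the other 6 members passed it through the E9.5 library. Hbb-bs and Hba-a1, with 22 and 10 UMIs at E16.5, also reached it there. For these reasons no count of members is read as support.

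Hbb-bs was higher at E16.5 than at P0, with 22 UMIs against 2 and 0 in the P0 libraries. This was 36.2 times the P0 level (counting interval 8.90 to 317, adjusted p = 0.000121, edgeR). The ratios here use UMI totals, whereas the tests and fitted log2 changes use TMM scaling. The fitted log2 change of Hbb-bs was 5.77 with TMM and 5.15 with library totals. It lay between 5.18 and 11.33 when either P0 library was left out, replicate 2 having none. The size of these p-values is not stable: over the other edgeR settings that of Hbb-bs ran from 2.01e-17 to 1.01e-09. Hba-a1 had 10 UMIs at E16.5 against 3 and 0 at P0, a ratio of 11.0 (2.82 to 62.0). Its fitted log2 change of 4.06, or 3.44 with library totals, lay between 3.47 and 10.20 when either P0 library was left out. It was called with edgeR (adjusted p = 0.00244) and not with DESeq2 (adjusted p = 0.101). Hba-x was called by edgeR on 2 UMIs at E16.5 against 0 and 0 at P0 (adjusted p = 0.0317, and 0.0524 with no filter on low counts). Both groups are within the floor of 3 counts, so no fold is given. Hba-a2 was not called, with 3 UMIs at E16.5 against 3 and 0 in the newborn libraries (adjusted p = 0.149, edgeR). Hbb-y was not called either, with 2 UMIs at E16.5 against 27 and 2 (adjusted p = 0.354, edgeR), and Hbb-bh1 had none at both stages.

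The red cell lists were read beside these counts. Of the haem and iron list 3 of 13 tested genes rose at E16.5 and 0 fell, of the partner list 4 of 8 rose and 0 fell, and of the erythroid list 4 of 9 rose and 0 fell. Of the membrane list 0 of 4 were called, and of the regulator list 1 of 11 rose and 2 fell. Over all genes 14.5% rose, so the haem and regulator counts lie near the background, and the lists are short. The risen erythroid-list genes were Mgst3, Smim1, Blvrb and Tmem14c, and in the E9.5 library these had a UMI in 72.2%, 62.3%, 53.0% and 96.5% of the other cells. These calls, and the list counts above, used TMM scaling. Per 10000 non-globin UMIs, without TMM, Mgst3 had 1.60 at E16.5 against 0.465 and 0.442 at P0, and Smim1 0.485 against 0.133 and 0.154. Blvrb had 0.947 against 0.802 and 0.771, and Tmem14c, inside its P0 range, 1.73 against 1.60 and 1.77. Of the 3 haem-list genes called higher, Fth1 was also inside its P0 range, with 21.3 against 19.7 and 22.0. Mgst3 had 135 UMIs at E16.5 against 84 and 43 at P0 (log2 change 2.42, adjusted p = 1.34e-05, edgeR). The erythroid genes Gata1, Slc4a1, Hemgn and Trim10 had 0 UMIs in all 3 mitral valve libraries, and Alas2 had 0 at E16.5 against 2 and 0 at P0. The summed level of the erythroid list was 4.99 per 10000 in the E16.5 library, against 3.37 and 3.44 in the newborn libraries, with 12 of 21 genes at 0 at E16.5 against 10 and 9. Cardiomyocyte markers moved in the same comparison, with 12 of 13 higher at E16.5, and their part in these results was not tested.

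Between E9.5 and P0, 58.8% of all genes were called, 30% as higher and 28.8% as lower at E9.5. The threshold caps the globin level of each E9.5 cell in this comparison. Hbb-bh1 was at least 1532-fold higher and Hba-x at least 1081-fold higher at E9.5, taking 3 UMIs over both P0 libraries for the 0 found there. Hbb-y was 301 times the P0 level (210 to 450), a ratio in which 27 of the 29 P0 UMIs came from the cell described above. The ratio was 434 for Hba-a1 (148 to 2104), 197 for Hba-a2 (67.2 to 953) and 27.7 for Hbb-bs (7.62 to 229). These 3 rest on P0 replicate 1, since replicate 2 had 0. With either P0 library left out, the fitted log2 changes ran from 8.15 to 14.87 for Hba-a1, from 7.01 to 13.72 for Hba-a2, from 4.18 to 10.31 for Hbb-bs and from 7.74 to 10.51 for Hbb-y. These members passed the filter through the E9.5 library, where they are high, so no p-value is given for them. Hbb-bt, with 214 UMIs at E9.5 and 6 and 0 at P0, was not tested. Hbb-bs had 0.199 per 10000 in other E9.5 cells and 0.260 at E16.5, with overlapping counting intervals (0.181 to 0.219 and 0.163 to 0.394). Cell makeup differed as well, with 13 of 13 cardiomyocyte markers higher at E9.5 and 11 of 11 tested myeloid markers lower, and its part in these results was not tested.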

How the data were processed

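Raw UMI counts per gene and cell were made by the authors with Cell Ranger 2.1.1 on mm10, per the submitters' processing notes, and were deposited unnormalised; no source used here names its other settings. Cells with under 500 genes or over 10% mitochondrial UMIs, and doublets predicted by scrublet within scanpy 1.11.5, were left out; it marked 5 of 1206 E9.5 cells. E9.5 cells were clustered without the 7 globin genes (2000 variable genes, 20 components, 15 neighbours, and the igraph form of Leiden clustering at resolution 1.0). Cluster names come from marker lists; the rule that the named list must lead every other list among the 10 leading genes was tightened after the clusters were seen, which left clusters 9 and 12 unnamed.

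Levels are UMIs per 10000, over all UMIs for globins and over non-globin UMIs for other genes. Shares have exact binomial and sums exact Poisson intervals. UMIs summed per library over cells under the threshold were fitted with edgeR 4.0.16 in R 4.3.3, all libraries together, with TMM scaling. A gene was kept if, in at least 1 library, its share of UMIs reached that of 10 counts in the smallest library, E16.5. The count needed was thus higher in the larger libraries, and Hbb-bt, with 214 UMIs at E9.5, fell short of it. The script was tested on simulated data. Alternatives, DESeq2 1.42.0 among them, are in the closing section.

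Named genes are the members, the leading genes of 5 red cell lists and the genes with the highest rank correlations. List genes named for a small or opposite difference, and Bcl11a, Sox6 and Myb, were picked after their values were seen. The members and lists were chosen with earlier results of these data known. Positions are from GENCODE M21 and promoters from RefSeq (GRCm38.p6), where 6 of 7 members matched. The stage of the E16.5 library was taken from its title.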

Additional observations from a re-analysis of the deposited data

How the results depend on the processing

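No paired analysis was possible because only P0 has 2 libraries and each other stage has 1. Of the values that answer a comparison, 78 settings counted as the same and 26 as moved. Same meant inside the main counting interval or, for counts of genes or cells, within a fixed ratio. For other values 100 counted as the same, 11 moved and 2 lost their call, and none of these settings reversed a called result. With both P0 libraries kept, same for a fitted log2 change meant only an unchanged sign and call. Hba-x at E16.5, for example, had a fitted 4.74 with DESeq2 against 7.57. These rest on 2 UMIs against 0 and 0, within the floor of 3 counts, and are not read as a fold. The median of single-cell shares gave 41.6% adult alpha, 0.498% adult beta and 35.9% Hbb-bh1 of embryonic beta UMIs, and a threshold of 3000 gave 35.8% for the last, against 36.2% over the summed UMIs. Other E9.5 cells had 66.2 globin UMIs per 10000 with a threshold of 500 and 137 with one of 3000. Their median was 65.3, and cells under 100 had 65.6. The median over cells was 0 in each mitral valve library. Without the cell with the most globin UMIs, an alternative added after seeing the data, P0 replicate 1 had 0.04999. Thinned to 500 UMIs, 96.2% of other E9.5 cells, 1.93% at E16.5 and 0% in P0 replicate 2 had a globin UMI. The share was 10.6% at E16.5 with no thinning, and 0% in P0 replicate 2 without the doublet filter. At clustering resolution 0.5 the highest cluster level was 86.6, against 71.7.

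For E16.5 against P0, library totals called 794 genes higher and 3281 lower, leaving globin UMIs out of the totals 794 and 3284, and DESeq2 655 and 365, against 1364 and 1259. For E9.5 against P0, DESeq2 called 834 higher and 1232 lower, against 2822 and 2713. Hba-x at E16.5 lost its call with no filter on low counts (adjusted p = 0.0524, edgeR) and Hba-a1 with DESeq2 (adjusted p = 0.101). DESeq2 gave no adjusted p for Hbb-bs at E16.5. The cause was not tested. Leaving out either P0 library gave log2 changes at E16.5 of 3.47 to 10.20 for Hba-a1, 1.73 to 8.46 for Hba-a2, -2.01 to 0.78 for Hbb-y and 5.18 to 11.33 for Hbb-bs. At E9.5 they were 8.15 to 14.87 for Hba-a1, 7.01 to 13.72 for Hba-a2, 7.74 to 10.51 for Hbb-y and 4.18 to 10.31 for Hbb-bs. With 1 P0 library left there is no residual spread, so these have no test. Edge values come from P0 libraries at or near 0, where fitted changes are not bounds. Depth limits the mitral valve values, which rest on 43, 41 and 2 UMIs.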

Other observations

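The distant relatives of the globins were also counted. Cytoglobin (Cygb), a globin of fibroblast-type cells, had 0 UMIs in globin-rich and 22 in other E9.5 cells, 14 at E16.5, and 100 and 50 in the P0 libraries. Myoglobin (Mb), the oxygen store of muscle, had 3 UMIs in globin-rich and 89 in other E9.5 cells, 11 at E16.5, and 42 and 16 at P0. Neuroglobin (Ngb) had 1 UMI in globin-rich and 1 in other E9.5 cells and 0 in the mitral valve libraries. These counts are not scaled for depth, and the libraries differ in depth and cell number, so no order of the libraries is read from them.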
